A study of Mus musculus with 4 samples.

Results

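The keratins examined here are 10 of the 32285 genes in the filtered matrices, Krt5, Krt7, Krt8, Krt10, Krt14, Krt15, Krt17, Krt18, Krt19 and Krt20, taken by gene symbol from all 4 libraries of the series. The matrices hold 53 genes of the keratin family in all, and the other 43 are described only as a group. The libraries are droplet-based single-cell RNA-seq (10x Genomics, 3′ ends) of CD45- thymic stroma from untreated C57BL/6 mice aged 6 months. WT libraries (n = 2; wild type, carrying the study's label Foxn1LacZ mock) were set against Z/Z libraries (n = 2), from mice homozygous for the Foxn1LacZ allele, which the study describes as hypomorphic. Foxn1 encodes the transcription factor that thymic epithelial cells (TECs) need for their differentiation. Each library came from 10 to 15 pooled thymi that were digested, depleted of CD45+ cells on magnetic columns and then sorted. The labels call the mice female in one field and male in another, so sex is not stated here. Nothing in the labels says that the pools within a genotype were independent beyond being separate samples, so p-values measure only the spread between these samples, which may be technical.

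Keratins are the intermediate filament proteins of epithelia. A filament forms only from pairs of a type I (acidic) and a type II (basic) chain, so a cell that makes filaments makes at least one of each type. Krt5, Krt7 and Krt8 are type II chains, and Krt10, Krt14, Krt15, Krt17, Krt18, Krt19 and Krt20 are type I chains. Krt8 with Krt18 is the pair of simple epithelia and, in the thymus, of the cortex, where cortical TECs (cTECs) select T cells on self peptides. Krt5 with Krt14 is the pair of basal cells and of many medullary TECs (mTECs). Krt10 belongs to the suprabasal, cornifying layers of skin, Krt15 to basal cells of stratified epithelia, Krt17 to skin appendages and stressed epithelium, Krt7 and Krt19 to ducts and simple glands, and Krt20 to gut epithelium and the urothelium. mTECs of the Aire stage express many genes of other tissues, skin and gut genes among them.

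In the GENCODE vM21 annotation of GRCm38, the members lay in both keratin clusters of the mouse genome. Krt7 (chr15:101411043-101430313, + strand), Krt5 (chr15:101707070-101712898, − strand) and Krt8 (chr15:101996698-102004482, − strand) lay on chromosome 15. Krt18 (chr15:102028180-102032027, + strand) was the type I gene of that cluster, 23697 bases from Krt8 and with 0 annotated genes between them. The other 6 type I members lay on chromosome 11, namely Krt10 (chr11:99385254-99389364), Krt20 (chr11:99428403-99438150), Krt15 (chr11:100131758-100135928), Krt19 (chr11:100140810-100148665), Krt14 (chr11:100203162-100207548) and Krt17 (chr11:100256217-100261029), all on the − strand. The last 500 transcript bases, which the 3′ tags sample, are not fully distinct between close relatives. Of the 451 words of 50 bases in that stretch, 43 (9.53%) of Krt14 also occurred in Krt16 or Krt17, and 43 of Krt17 also occurred in Krt14 or Krt16. Krt18 shared 5 words (1.11%) with Gm5200, and the other 7 members shared 0. Values of Krt14 and Krt17 therefore carry some uncertainty about which of these genes a tag came from. Genes on the opposite strand overlap Krt5 (Gm44323), Krt7 (Gm671), Krt8 (Gm36026) and Krt10 (Gm11940).

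Promoter sequences were found for 7 of the 10 members in the RefSeq table of GRCm38.p6 (the entries for Krt15, Krt17 and Krt19 are missing). Those of Krt8 and Krt18 are shown because these genes had the most alike pattern over the epithelial clusters. Krt5 is shown as the basal type II gene, and Krt20 and Krt10 are shown because they were highest, Krt10 in the WT libraries only, in the epithelial cluster with the most Aire (the Aire cluster). Each runs 5′ to 3′ on the gene's own strand, up to its start and outside the annotated gene body, and capitals mark a TATA box match (TATAAA).
Krt8 (chr15:102004483-102004592, − strand, 110 bases): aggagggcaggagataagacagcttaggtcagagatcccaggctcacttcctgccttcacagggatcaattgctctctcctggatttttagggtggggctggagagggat
Krt18 (chr15:102027966-102028179, + strand, 214 bases): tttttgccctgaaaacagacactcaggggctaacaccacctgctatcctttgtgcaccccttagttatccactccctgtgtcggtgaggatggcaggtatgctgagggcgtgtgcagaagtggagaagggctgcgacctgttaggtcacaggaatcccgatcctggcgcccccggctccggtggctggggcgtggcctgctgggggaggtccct
Krt5 (chr15:101712906-101713155, − strand, 250 bases): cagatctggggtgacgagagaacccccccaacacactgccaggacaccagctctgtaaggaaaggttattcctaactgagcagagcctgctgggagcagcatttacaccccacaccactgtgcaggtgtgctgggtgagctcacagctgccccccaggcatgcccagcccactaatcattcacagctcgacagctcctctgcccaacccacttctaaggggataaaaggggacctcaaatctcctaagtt
Krt10 (chr11:99389365-99389614, − strand, 250 bases): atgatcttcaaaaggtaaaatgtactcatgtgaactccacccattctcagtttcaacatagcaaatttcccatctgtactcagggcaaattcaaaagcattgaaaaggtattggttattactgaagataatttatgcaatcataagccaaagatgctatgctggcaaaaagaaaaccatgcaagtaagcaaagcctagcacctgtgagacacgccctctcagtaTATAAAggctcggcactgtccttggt
Krt20 (chr11:99438154-99438403, − strand, 250 bases): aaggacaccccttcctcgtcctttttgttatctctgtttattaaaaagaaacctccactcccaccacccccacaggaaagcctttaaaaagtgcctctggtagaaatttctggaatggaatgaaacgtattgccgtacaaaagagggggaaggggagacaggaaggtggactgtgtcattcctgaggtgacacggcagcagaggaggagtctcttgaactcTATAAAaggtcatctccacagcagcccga
Over the 250 bases before each RefSeq start, both strands were searched for TATAAA, for the GC box GGGCGG and for the AP-1 site TGANTCA. The first was found in Krt10, 26 bases before the start, and in Krt20, 29 bases before the start, and in 12.4% of the 32851 promoters of the table. GGGCGG occurred 4 times in Krt7 (141, 128, 56 and 24 bases before the start) and in 32.7% of all promoters. TGANTCA was in none of the 7 windows and in 6.75% of all promoters. The windows of Krt5, Krt8, Krt14 and Krt18 held none of these 3 letter strings. By the GENCODE annotation all 250 bases of the Krt7 and Krt14 windows lay inside the gene. For Krt8 140 bases and for Krt18 36 bases did, so these windows are not wholly upstream sequence.

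After filters on detected genes, mitochondrial share and doublet score, 9846 of 13981 called cells were kept, 1458 and 456 in the WT libraries and 4455 and 3477 in the Z/Z libraries (replicates 1 and 2 throughout, in that order). WT 2 was the shallowest library, with 8468086 UMIs (unique molecular identifiers, each standing for 1 captured transcript) against 29298450 to 50705511 in the others, and 39.8% of its called cells passed the filters. Cell barcodes were shared within a genotype, 202 between the WT libraries and 249 between the Z/Z libraries among called cells, and 16 and 33 among kept cells. Keeping each shared barcode once changed no call among the members. The epithelium comprised 14 clusters with 4169 cells (554, 104, 1962 and 1549), and no keratin gene entered the clustering. Epcam was detected in 71.1% of these cells and in 5.92% of fibroblasts. Foxn1, the targeted gene, measured 84.2 and 112 CPM (counts scaled to a common total with TMM factors) in WT against 53.8 and 71.2 in Z/Z TECs, and 3′ tags need not cover the altered part of the gene. Its log2 fold change was −0.64 (SE 0.22, adjusted p = 0.0927 by edgeR's quasi-likelihood test).

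Keratin levels by cluster are given in CPM, the UMIs of a gene scaled to a total of 1000000 over the cells summed, with the 4 libraries pooled unless each library is given. Levels were not scaled by gene length, because 3′ tags mostly mark transcript ends. Reads in introns (24.6% to 25.2% by library) were counted too, so levels of different genes compare only roughly. Krt18 (2649) and Krt8 (1874) were the most abundant members in TECs, followed by Krt17 (481), Krt5 (167), Krt7 (121) and Krt14 (99.8). Krt19 (39.5), Krt10 (26.9), Krt20 (21.1) and Krt15 (3.20) were low. Together the 10 members made up 0.433% and 0.390% of the TEC UMIs of the WT libraries and 0.474% and 0.725% of those of the Z/Z libraries. The ratio of type II to type I UMIs over the members was 0.618 and 0.763 in WT against 0.714 and 0.614 in Z/Z TECs, so the genotypes overlapped in this ratio.

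**Figure D1:**
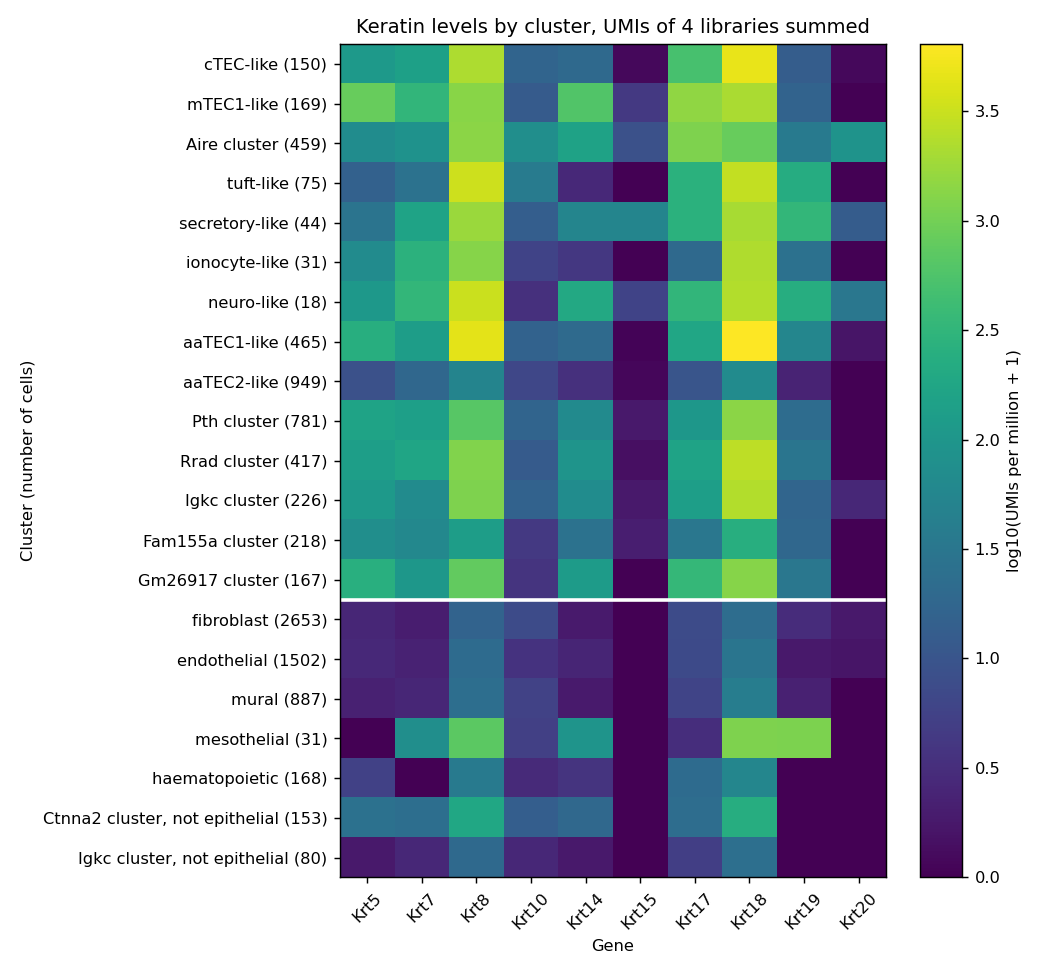
Level of each keratin (columns) in each cluster (rows, cell numbers in brackets), as log10 of CPM plus 1, with the 4 libraries summed. The white line divides the 14 epithelial clusters (above) from the others. Krt8 and Krt18 are high in nearly all epithelial clusters and lowest in the aaTEC2-like cluster (51.3 and 66.6 CPM), Krt5 and Krt14 peak in the mTEC1-like cluster, and Krt20 is high in the Aire cluster (89.9).

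Krt8 and Krt18 were highest in the aaTEC1-like cluster, which takes its name from the study's class of age-associated TECs. There Krt8 measured 3698 and 2609 CPM in WT against 3940 and 5418 in Z/Z, and Krt18 measured 5136 and 3006 in WT against 5317 and 7992 in Z/Z. The WT values rest on 15 and 10 cells and the Z/Z values on 256 and 184. All members together reached 11590 CPM of this cluster, 94.4% of them from Krt8 and Krt18. The cTEC-like cluster came next for Krt18, at 4099, 4852, 3128 and 6516, and its range overlapped that of aaTEC1-like cells. For Krt8 the tuft-like cluster came next, at 3006, 3376, 2830 and 4103, which also overlapped the aaTEC1-like values. Tuft cells are chemosensory epithelial cells. Within single clusters the balance of the pair differed. The ratio of Krt18 to Krt8 UMIs lay between 1.85 and 2.50 in the cTEC-like cluster in all 4 libraries, and at 0.575, 0.391, 0.576 and 0.696 in the Aire cluster, so these 2 clusters did not overlap in any library.

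The aaTEC2-like cluster stood at the other end. Its Krt8 was 51.3 and its Krt18 66.6 CPM, the lowest of the 14 epithelial clusters, and all members together came to 162 CPM. This compares with 56.3 in fibroblasts. Its cells came almost wholly from Z/Z (12, 0, 554 and 383 cells). By library Krt8 was at 34.1 and 74.5 and Krt18 at 49.5 and 94.2 in the Z/Z libraries. Droplets without a cell held 610 and 647 CPM of Krt8 and 928 and 1348 of Krt18 in the same libraries, above the cluster's own level. After each cell was thinned to 2000 UMIs, 6.68% and 9.0% of aaTEC2-like cells of Z/Z had a Krt8 UMI, against 3.5% and 4.86% of fibroblasts. Epcam was detected in 11.8% of aaTEC2-like cells and Nos1, a marker of this class, in 83.4%. Keratins did not enter its naming, and how much of its keratin signal is free RNA was not tested.

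Krt5 and Krt14 were highest in the mTEC1-like cluster, at 836 and 588 CPM. mTEC1 are the medullary cells that make the chemokine Ccl21a. Krt5 was at 950, 2752, 830 and 686 and Krt14 at 661, 3044, 474 and 516 there, and the WT 2 values come from 5 cells. The order of the other clusters in Krt5 and in Krt14 differed between libraries. In Krt5, for example, aaTEC1-like cells (214 and 268 CPM in Z/Z) lay above a cluster led by Gm26917 (153 and 128) in the Z/Z libraries, but below it in WT 1 (163 against 452). The pair was not balanced everywhere. The ratio of Krt5 to Krt14 UMIs was 1.44, 0.904, 1.75 and 1.33 in mTEC1-like cells. In aaTEC1-like cells it was 1.13, 7.73, 17.8 and 14.2, so Krt5 was the major basal keratin of this cluster in every library but WT 1, where both were near each other.

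Krt17 was highest in the mTEC1-like (1492) and Aire (1169) clusters. By library it measured 1973, 3190, 1205 and 1402 in mTEC1-like cells and 1162, 748, 1320 and 1360 in the Aire cluster, which overlapped. The Aire cluster was given no cell type name because the leukocyte gene Cd52 led it. It held 29.7% of its member UMIs as Krt17, against 1.55% in aaTEC1-like cells. Of the 8 members with UMIs in every epithelial cluster of 30 or more cells, Krt7 was spread most evenly, with an 18.1-fold range between the highest (mTEC1-like, 317) and lowest (aaTEC2-like) of these clusters. Ionocyte-like cells, an ion-transporting type, were close behind at 276 and were found in Z/Z only (0, 0, 21 and 10 cells).

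The remaining members were low in most epithelial clusters. Among clusters of 30 or more cells, Krt19 was highest in secretory-like (325) and tuft-like (228) cells and lowest in aaTEC2-like cells (1.43). In tuft-like cells it measured 210, 402, 369 and 118, and in secretory-like cells 295, 54.9, 107 and 705, the WT 2 value from 2 cells, so their ranges overlapped. Outside the epithelium, mesothelial-like cells (31 cells, Z/Z only) had 1149 CPM of Krt19, 1171 of Krt18 and 708 of Krt8, with 0 UMIs of Krt5. Mesothelium lines the body cavities and is known for simple keratins. A cluster led by Ctnna2 (153 cells, Z/Z only) was given no lineage name and was not counted among the epithelial clusters. It had Sox10 in 56.2% of its cells, 186 CPM of Krt8 and 238 of Krt18. These keratin levels lay above those of the aaTEC2-like cluster (51.3 and 66.6), the lowest of the epithelial clusters. Whether the cells of the Ctnna2-led cluster are epithelial was not tested. Krt20 was almost confined to the Aire cluster, which held 97.0%, 100%, 93.1% and 96.9% of the Krt20 UMIs of the TECs of each library. With libraries pooled, Krt10 was highest in the Aire cluster (74.6), where it measured 113 and 53.5 in WT against 7.34 and 4.83 in Z/Z. In Z/Z it was higher in cTEC-like (17.6 and 14) and aaTEC1-like (15.4 and 13.2) cells than in the Aire cluster. Krt15 was low everywhere except in secretory-like cells (52.3), where it measured 143 and 247 in the WT libraries (8 and 2 cells) and 2.22 and 16.2 in the Z/Z libraries (18 and 16 cells).

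The likeness of keratins over the 13 epithelial clusters with 30 or more cells was given by Pearson's r of log levels, as a description over points that share libraries. Krt8 and Krt18 were closest (r = 0.95), then Krt5 and Krt14 (0.75), Krt5 and Krt7 (0.74), Krt15 and Krt20 (0.73) and Krt14 and Krt17 (0.68). Among 7312 candidate genes, those most like Krt8 were Krt18, Pak4 (0.94) and Epcam (0.94), and those most like Krt18 were Krt8, Sfn (0.94) and Arhgef5 (0.91). Those most like Krt5 were Rap2b (0.90), Mpzl2 (0.88) and Wfikkn2 (0.85), and those most like Krt14 were Itga6 (0.84), which encodes a hemidesmosome integrin, Srpk1 (0.82) and Adm (0.82). For Krt17 they were S100a14 (0.84), Skint10 (0.84) and H2-Oa (0.83). For Krt7 they were Diaph1 (0.90), Rhbdf2 (0.89) and Rragd (0.87), and for Krt19 Elf3 (0.90), Lsr (0.89) and Tuft1 (0.89). For Krt20 they were M6pr (0.92), AW112010 (0.88) and Pglyrp1 (0.86), and for Krt10 Chmp5 (0.90), Suclg1 (0.89) and Ssu72 (0.88).

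Genotypes were compared on UMIs summed over all TECs of each library, which asks how the epithelium as a whole differed in mice homozygous for the Foxn1LacZ allele. Krt18 and Krt7 were higher and Krt10 and Krt15 were lower in Z/Z, and the other 6 members did not pass the test. These are 4 of 10 members called at an adjusted p under 0.05 (2 higher and 2 lower), against 21.4% of the 18856 genes tested (9.69% higher and 11.7% lower). The median log2 fold change of the members was −0.83 and that of all genes 0.0012. For 8 of the 10 members both Z/Z libraries lay on the same side of both WT libraries, against 67.9% of all genes tested. With 2 libraries a genotype, and since sums weight cells by their RNA, fewer cells of a type and less RNA per cell cannot be told apart. Without Z/Z 1, 0 members were called by edgeR, as were 0 of all 19800 genes tested. Without Z/Z 2, 1 member (Krt20) and 6.18% of all genes were called, without WT 1 5 members and 16.7%, and without WT 2 4 members and 20.8%. In a self-test on simulated counts, 80% of genes changed 4-fold were recovered in TEC sums. The changed genes had higher counts than Krt15, and the simulated spread followed the trend over genes rather than each gene's own.

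Among the simple keratins, Krt18 measured 1438 and 1190 TMM-scaled CPM in WT against 2883 and 4638 in Z/Z. The Z/Z values were both above the WT values, by 2.86-fold (log2 fold change 1.52, SE 0.29, adjusted p = 0.0231). Krt8, its partner, measured 1459 and 1435 in WT against 2013 and 2898 in Z/Z. Both Z/Z libraries lay above WT, but the difference missed the threshold (log2 fold change 0.76, SE 0.23, adjusted p = 0.0693). Krt18 UMIs per Krt8 UMI were 0.986 and 0.829 in WT against 1.43 and 1.60 in Z/Z TECs. Krt7 measured 105 and 82.6 in WT against 140 and 169 in Z/Z, 1.64-fold higher (log2 fold change 0.71, SE 0.19, adjusted p = 0.0481). Krt19 measured 50.4 and 75.5 in WT against 31.6 and 52.1 in Z/Z and its groups overlapped (log2 fold change −0.57, SE 0.32, adjusted p = 0.244). Krt20 measured 33.4 and 51.5 in WT against 8.24 and 31.0 in Z/Z (log2 fold change −1.09, SE 0.62, adjusted p = 0.255).

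Among the keratins of stratified epithelia, Krt10 measured 80.5 and 39.8 in WT against 14.4 and 10.7 in Z/Z, 4.89-fold lower (log2 fold change −2.29, SE 0.38, adjusted p = 0.0172). Krt15 measured 9.21 and 7.06 in WT against 1.66 and 1.26 in Z/Z, 5.62-fold lower (log2 fold change −2.49, SE 0.41, adjusted p = 0.0171). In WT the UMIs of both genes came from few cells. Of the 1049 Krt10 UMIs of WT 1, 340 came from 1 cell and 68.8% from the 5 cells with most, and in WT 2 the 5 cells with most held 81.3% of 96 UMIs. In Z/Z the 5 cells with most held 8.30% and 10.2% of the Krt10 UMIs. Krt15 had only 120, 17, 32 and 22 UMIs, and 5 cells held 65.0%, 100%, 100% and 81.8% of them.

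Krt17 measured 1012 and 704 in WT against 271 and 493 in Z/Z, which missed the threshold (log2 fold change −1.17, SE 0.34, adjusted p = 0.0618). Krt14 measured 155 and 257 in WT against 71.7 and 111 in Z/Z (log2 fold change −1.16, SE 0.32, adjusted p = 0.0561). For both genes each Z/Z library lay below both WT libraries. Krt5 measured 153 and 256 in WT against 190 and 212 in Z/Z, so the Z/Z values lay within the WT range (log2 fold change −0.01, SE 0.26, adjusted p = 0.975). The ratio of Krt5 to Krt14 UMIs in TECs was 0.990 and 0.997 in WT against 2.66 and 1.90 in Z/Z. Krt8 and Krt18 made up 64.4% and 64.1% of the member UMIs in WT against 87.0% and 87.5% in Z/Z, and Krt17 made up 22.5% and 17.2% against 4.82% and 5.72%. Leukocyte markers moved with these values: the haematopoietic list (Ptprc, Cd52, Cd3e, Trbc2, Lck, Lyz2 and Tyrobp) summed to 973 and 1523 CPM of WT TECs and 96.3 and 305 of Z/Z TECs, and their part in the result was not tested. The parathyroid list (Gcm2, Pth and Casr) summed to 832 and 22.5 CPM of WT TECs and 146 and 20.2 of Z/Z TECs, so the genotypes overlapped in it.

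**Figure D2:**
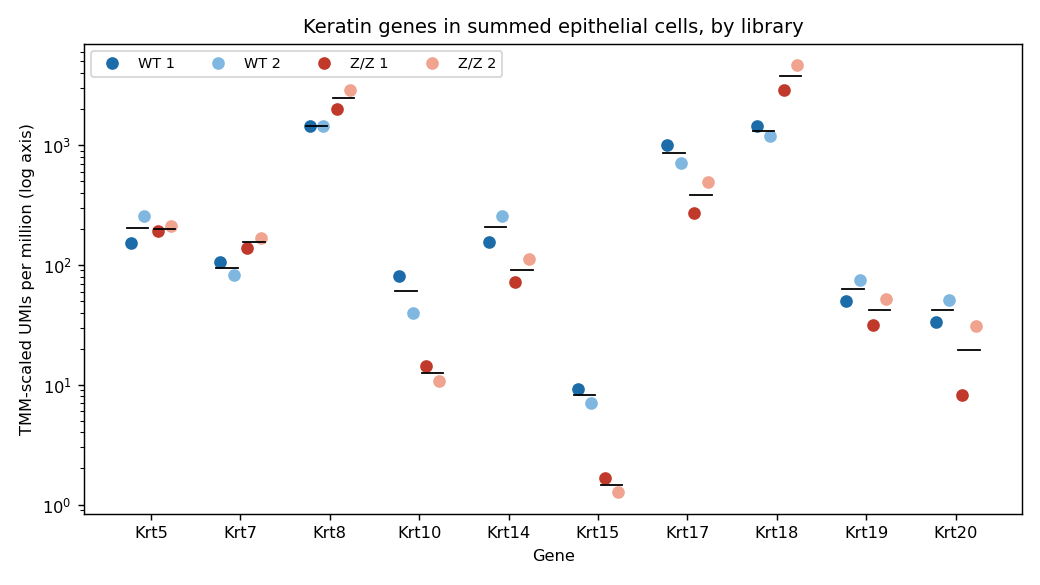
TMM-scaled CPM (log axis) of each keratin in the summed TECs of each library. Points are libraries (WT 1 and 2 in blues, Z/Z 1 and 2 in reds) and black lines are genotype means. Krt18 is higher in both Z/Z libraries (2883 and 4638) than in both WT libraries (1438 and 1190), Krt10 is lower (14.4 and 10.7 against 80.5 and 39.8), and Krt5 overlaps.

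The clusters from which the keratin UMIs came differed between genotypes. The Aire cluster held 49.5% and 45.2% of the TECs in WT against 2.96% and 5.17% in Z/Z, and 59.3% and 60.6% against 6.55% and 12.0% of the TEC UMIs. It supplied 86.3% and 85.4% of the Krt10 UMIs of WT TECs and 3.97% and 6.45% of those of Z/Z TECs. For Krt17 these shares were 70.7% and 67.6% against 37.8% and 39.3%. The aaTEC1-like cluster supplied 5.13% and 18.3% of the Krt8 UMIs in WT against 65.1% and 55.3% in Z/Z. For Krt18 it supplied 7.23% and 25.4% in WT against 61.3% and 51.0% in Z/Z. The mTEC1-like cluster supplied 35.6%, 36.7%, 28.2% and 29.0% of the Krt5 UMIs, with WT above Z/Z by a narrow margin.

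**Figure D3:**
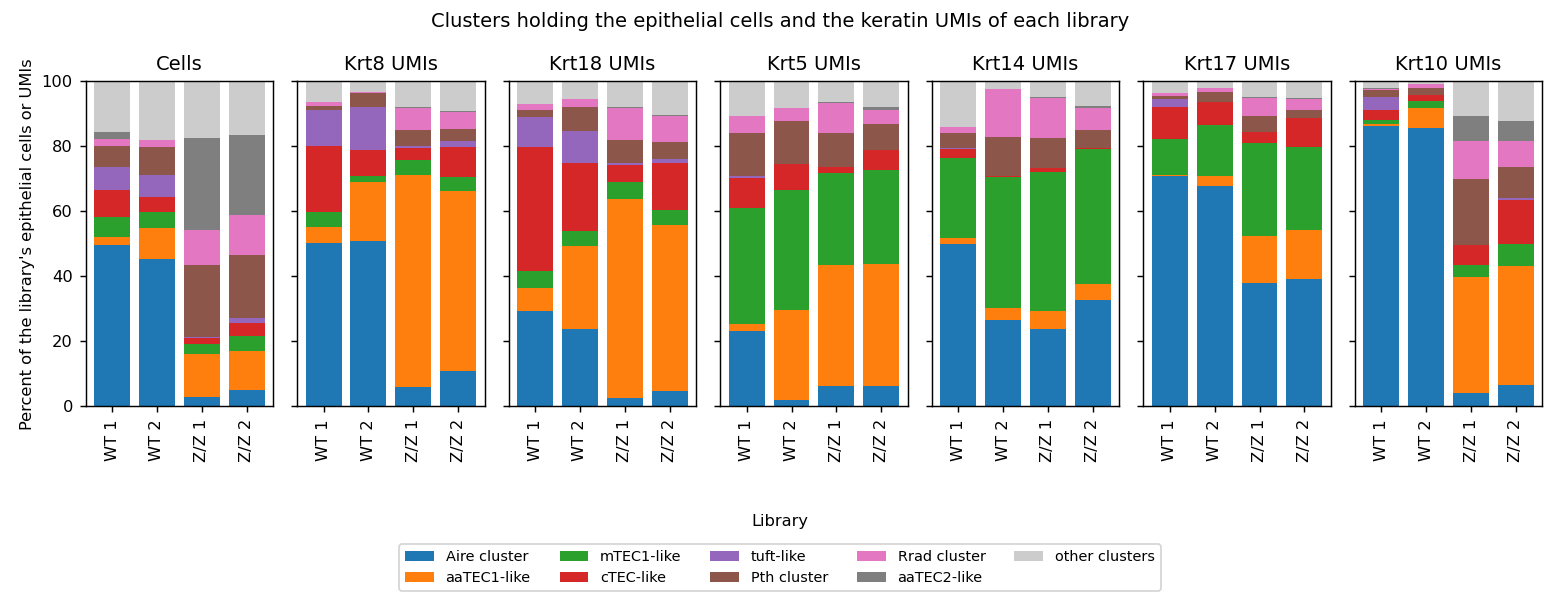
Percent of each library's epithelial cells (left panel) and of its UMIs of 6 keratins (other panels) that lie in each cluster. Bars are libraries and stacked colours are clusters, with the clusters not drawn singly in grey. The Aire cluster falls from 49.5% and 45.2% of cells in WT to 2.96% and 5.17% in Z/Z, and most Krt8 UMIs of Z/Z lie in the aaTEC1-like cluster (65.1% and 55.3%).

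Leaving the Aire cluster out of the TEC sums, an alternative chosen after seeing the data, left 1 of the 4 calls, where 3.36% of 16624 genes were called. Krt15 was still lower (log2 fold change −4.83, SE 0.72, adjusted p = 0.0307). Krt18 was at 0.70 (SE 0.29, adjusted p = 0.234), Krt7 at −0.02 (SE 0.19, adjusted p = 0.974) and Krt10 at −0.84 (SE 0.33, adjusted p = 0.213). Krt14 was at −2.24 (SE 0.44, adjusted p = 0.0514) and Krt5 at −1.18 (SE 0.36, adjusted p = 0.128), both lower than in the sums of all TECs. Depth per cell differed between genotypes as well. In sums of TECs thinned to 2000 UMIs each, Krt5 fell in Z/Z (log2 fold change −1.26, adjusted p = 0.00105), Krt8 was at −0.24 and Krt18 at 0.55, with an adjusted p of 0.102 for Krt18. The median WT TEC held 16552 and 17716.5 UMIs and the median Z/Z TEC 6743.5 and 7051.

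Within the Aire cluster (274, 47, 58 and 80 cells) the genotypes were compared with the main clustering kept. Removing 2 times the share of doublets left 251, 41, 25 and 36 of its cells, so a larger share of the Z/Z cells had high doublet scores. In that refit 0 of 10576 genes were called. How far doublets enter the values that follow was not tested. At 2 times the resolution this cluster split into 3, and the shares of its cells in each differed between genotypes. A keratinocyte-like cluster took 148, 25, 14 and 28 of its cells (54% and 53.2% against 24.1% and 35%), a cluster led by S100a8 and S100a9 took 81, 14, 41 and 47, and a microfold-like cluster took 45, 8, 3 and 5. The part of this split in the values that follow was not tested, other than in the S100a8-led cluster, where the log2 fold change was −1.82 for Krt10, 0.73 for Krt14 and 2.52 for Krt20, none past the threshold. In the whole Aire cluster, by edgeR 0 of the 10 members passed the test (6 at an unadjusted p under 0.05), where 0.0159% of 12546 genes did (2 genes, 0.00797% in each direction, and 1848 at an unadjusted p under 0.05). DESeq2 called 4 members, out of 225 genes. Krt10 had the largest difference, at 126 and 60.5 in WT against 8.35 and 5.81 in Z/Z (log2 fold change −3.76, SE 0.49, adjusted p = 0.259). Krt14, in contrast, measured 140 and 121 in WT against 250 and 307 in Z/Z (log2 fold change 1.09, SE 0.20, adjusted p = 0.259). Krt7 measured 70.7 and 51.6 in WT against 134 and 192 in Z/Z (log2 fold change 1.40, SE 0.28, adjusted p = 0.259). Those 3 and Krt18 (762, 506, 1032 and 1838) were the genes that DESeq2 called. Krt20, which this cluster supplied almost alone, measured 58.7 and 91.5 in WT against 112 and 254 in Z/Z (log2 fold change 1.31, SE 0.45, adjusted p = 0.314), the other way from its difference in all TECs. Krt17 measured 1298, 846, 1502 and 1635 (log2 fold change 0.55, SE 0.25, adjusted p = 0.382). The median log2 fold change of the members was 1.13 and that of all genes 0.0022. The haematopoietic list summed to 1540, 2477, 1144 and 1893 CPM of this cluster, so the genotypes overlapped in it. The mesothelial list (Upk3b, Nkain4, Msln, Wt1 and Lrrn4) summed to 72.7 and 46.3 in WT against 314 and 310.1 in Z/Z, and the fibroblast list to 53.4 and 48.9 against 194 and 90.2. Their part in the result was not tested.

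Within the aaTEC1-like cluster 8 of 10 members passed the filter on low counts (Krt15 and Krt20 did not) and 0 were called by edgeR (2 at an unadjusted p under 0.05), where 0.00840% of 11906 genes were (1 gene, and 1261 at an unadjusted p under 0.05). DESeq2 called 1 of the members, Krt14, out of 81 genes. Krt14 measured 168 and 101 in WT against 13.3 and 22.0 in Z/Z (log2 fold change −2.94, SE 0.41, adjusted p = 0.140). These values stand on 38, 22, 77 and 97 UMIs, and whether Krt14 was called depended on which library was left out. Without WT 1, the log2 fold change was −1.46 for Krt5 and 1.24 for Krt18. Krt5 measured 190 and 777 in WT against 237 and 313 in Z/Z, so its groups overlapped (log2 fold change −0.82, SE 0.58, adjusted p = 0.680). Krt7 measured 75.2 and 64.0 in WT against 164 and 138 in Z/Z (log2 fold change 1.11, SE 0.32, adjusted p = 0.415). Krt8 (4314, 2886, 4364 and 6328) differed by 0.57 on the log2 scale (SE 0.37, adjusted p = 0.639). Krt18 (5991, 3325, 5890 and 9334) differed by 0.71 (SE 0.41, adjusted p = 0.605), and both genes overlapped between genotypes. The self-test recovered 73% of genes of higher count changed 4-fold, with the spread again simulated from the trend over genes.

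Whether the genotype difference itself differed between the Aire cluster and all other TECs was tested as an interaction. By edgeR 0 of 10 members passed (8 at an unadjusted p under 0.05), as did 0.00% of 16365 genes (1773 at an unadjusted p under 0.05). Krt10 came closest, its genotype difference being lower in the Aire cluster by a log2 value of −2.96 (SE 0.35, adjusted p = 0.0971). Krt14 (3.23, SE 0.51, adjusted p = 0.126), Krt17 (2.04, SE 0.31, adjusted p = 0.126) and Krt7 (1.44, SE 0.25, adjusted p = 0.146) followed with values in the other direction. Krt8 (0.36, SE 0.19) and Krt18 (0.53, SE 0.24) were nearer 0. Without WT 2, 4 members passed (Krt10, Krt14, Krt17 and Krt20), as did 1.78% of 18909 genes, and without WT 1 Krt14 did, 1 of 3 genes of 15051.

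**Figure D4:**
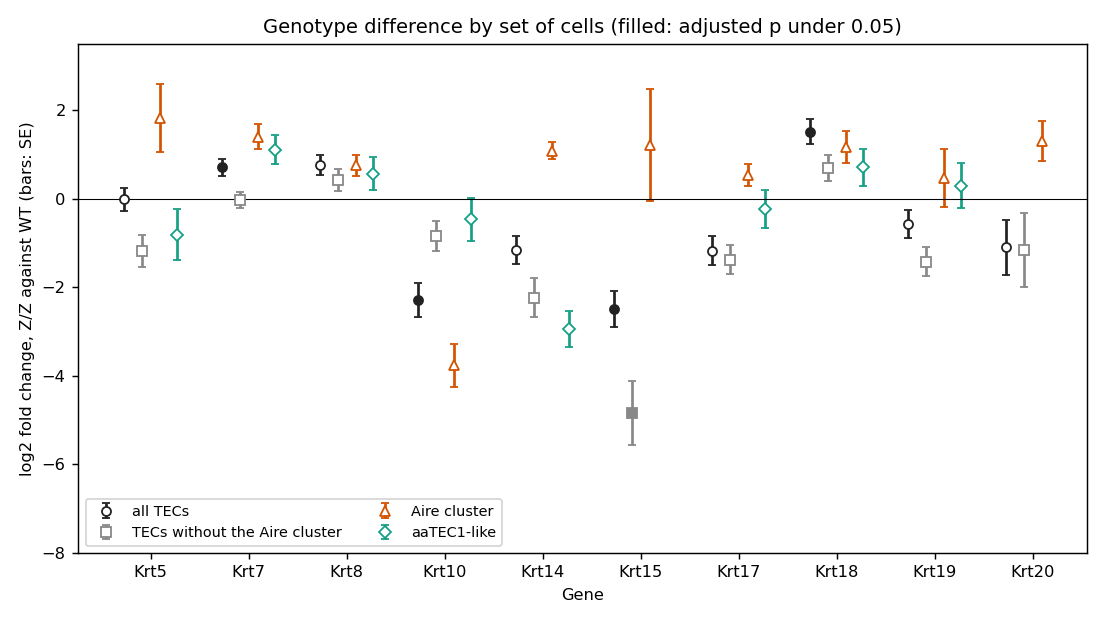
Log2 fold change of each keratin, Z/Z against WT, in all TECs, in TECs without the Aire cluster, in the Aire cluster and in aaTEC1-like cells. Bars are standard errors and filled symbols have an adjusted p under 0.05 (edgeR). Krt14 lies at 1.09 in the Aire cluster and at −2.94 in aaTEC1-like cells, neither past the threshold, and Krt10 lies at −3.76 in the Aire cluster.

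The share of TECs with a keratin UMI gives each cell equal weight. With cells thinned to 2000 UMIs (546, 104, 1927 and 1487 cells deep enough), Krt8 was detected in 71.1% and 72.1% of WT TECs and 48.1% and 57.0% of Z/Z TECs, a mean of 71.6% ± 0.74 against 52.5% ± 6.30 (SD, n = 2; exact permutation p = 0.333, two-sided, the smallest this design allows). Krt17 was detected in 50.9% and 42.3% against 10.6% and 17.6%, a difference of −32.5 percentage points. For Krt14 the shares were 20.9% and 15.4% against 4.57% and 7.40%, and for Krt5 18.3% and 21.2% against 13.0% and 12.7%. In all 4 of these both Z/Z libraries lay below both WT libraries. Without aaTEC2-like cells the Krt8 shares overlapped (means 72.4% and 69.0%, a difference of −3.36 points, exact permutation p = 1.0), and among cells with an Epcam UMI they differed by −5.98 points, against −19.1 in all TECs. The Krt5 difference was −2.64 and −1.92 points in these 2 subsets, against −6.89. Krt17 differed by −28.7 points in both, and Krt14 by −10.4 and −10.8. Without the Aire cluster, the alternative chosen after seeing the data, Krt8 differed by −16.75 points and Krt5 by −19.35. There Krt17 differed by −26.56 and Krt14 by −14.11 points, and none of these shares overlapped. Krt18 was detected in 66.9% and 61.5% against 56.6% and 68.1%, and Krt7 in 14.7% and 19.2% against 13.5% and 16.6%, so both overlapped. In fibroblasts, which should lack these genes, the thinned shares reached at most 6.81% for Krt18, 4.86% for Krt8 and 2.55% for Krt17, at median depths of 10606.5 to 14851 UMIs before thinning. Krt10 was detected in 1.36%, 2.09%, 1.23% and 0.833% of fibroblasts and in 4.40%, 0.962%, 1.92% and 1.35% of TECs, so its TEC share was at or near background except in WT 1. Without thinning, Krt8 was detected in 88.8% and 86.5% of WT and 63.3% and 71.1% of Z/Z TECs, and Krt17 in 75.5% and 61.5% against 21.3% and 31.5%. Krt18, at 88.6% and 87.5% against 69.1% and 76.7%, and Krt7, at 48.7% and 53.9% against 33.9% and 41.9%, did not overlap without thinning, at the unequal depths per cell given above.

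Cells with UMIs of both Krt5 and Krt8, the pairing of a basal and a simple type II chain, made up 13.0% and 14.4% of thinned WT TECs and 8.98% and 9.82% of thinned Z/Z TECs (means 13.7% ± 1.0 and 9.40% ± 0.59, SD, n = 2), a difference of −4.32 points. The difference was −1.22 points at 4000 UMIs, where the genotypes overlapped, −1.02 without aaTEC2-like cells and −0.82 among cells with an Epcam UMI. It widened to −12.96 points without the Aire cluster (means 22.2% and 9.28%), with no overlap. Cells with Krt5 but without Krt14 made up 9.71% and 13.5% against 11.1% and 9.82%, which overlapped. In TECs without the Aire cluster these cells differed by −7.27 points (means 17.7% and 10.5%), with no overlap. At least 1 member was found in 91.2% and 90.4% of WT and in 68.7% and 77.7% of Z/Z TECs. By cluster, with libraries pooled, Krt5 was found in 53.6% and Krt14 in 42.3% of thinned mTEC1-like cells. In aaTEC1-like cells Krt5 was found in 27.5% and Krt14 in 2.64%, while Krt8 was found in 89.4% and Krt18 in 95%. Intervals on these shares cover counting error only.

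**Figure D5:**
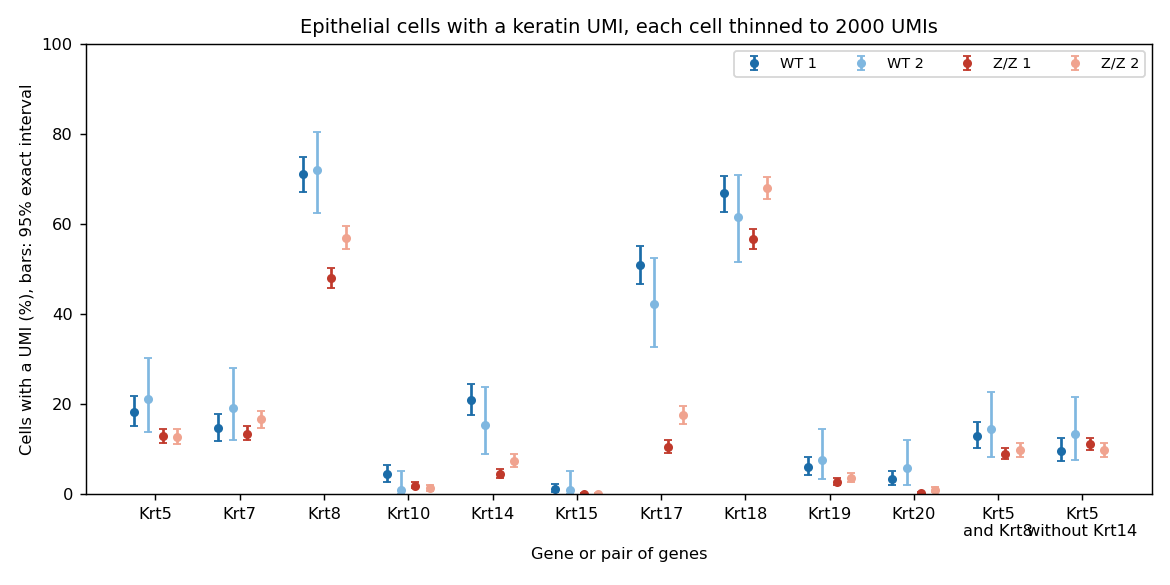
Percent of TECs with at least 1 UMI of each keratin, or of the pairs named, after thinning each cell to 2000 UMIs. Points are libraries and bars are 95% exact (Clopper-Pearson) binomial intervals for counting error. Krt17 is found in 50.9% and 42.3% of WT and 10.6% and 17.6% of Z/Z cells, and Krt18 overlaps between genotypes.

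Of the other 43 keratin genes, 24 had at least 50 UMIs in the TEC sums of the 4 libraries together. The test covered 26 of the 43, and 8 of these fell in Z/Z while 0 rose, against 11.7% and 9.69% of all genes tested. The most abundant was Krt23, at 107 and 58.9 TMM-scaled CPM in WT against 7.98 and 17 in Z/Z (log2 fold change −2.75, SE 0.46, adjusted p = 0.0180). Krt16, a keratin of stressed skin, measured 91.2 and 17.8 in WT against 2.18 and 15.0 in Z/Z (log2 fold change −2.72, SE 1.06) and missed the threshold (adjusted p = 0.125). Krt79 measured 32.0 and 108 in WT against 4.72 and 6.71 in Z/Z (log2 fold change −3.58, SE 0.63, adjusted p = 0.0194), and was at 2.03 once the Aire cluster was left out.

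Of 20 genes of proteins that tie keratin filaments to the membrane (desmosome, hemidesmosome and plakin genes), 8 were higher, 1 was lower and 11 did not pass the test in Z/Z TECs. Their median log2 fold change was 0.52. Of all genes tested, 9.69% were higher and 11.7% lower. Cd151, a partner of laminin-binding integrins, measured 30.0 and 22.0 in WT against 71.1 and 78.2 in Z/Z (log2 fold change 1.49, SE 0.20, adjusted p = 0.0122). Pkp4, a plakophilin, was at 1.15 (SE 0.15, adjusted p = 0.0114) and Itgb4, the hemidesmosome integrin, at 1.14 (SE 0.15, adjusted p = 0.0113). Col17a1, the hemidesmosome collagen, was the gene that fell, from 23.6 and 24.1 to 3.58 and 4.99 (log2 fold change −2.48, SE 0.28, adjusted p = 0.00938).

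Of 15 cornification genes 14 were tested in TECs, of which 11 fell in Z/Z and 0 rose, with a median log2 fold change of −4.00. Of all genes tested, 11.7% fell and 9.69% rose. Abca12, the lipid transporter of the skin barrier, measured 49.7 and 54.0 in WT against 0.0518 and 0.229 in Z/Z (log2 fold change −8.47, SE 0.45, adjusted p = 0.00720). Cnfn (cornifelin) measured 55.0 and 80.5 in WT against 0.311 and 1.03 in Z/Z (log2 fold change −6.65, SE 0.53, adjusted p = 0.00798). Casp14, the caspase of cornifying keratinocytes, measured 1.23 and 10.8 in WT and had 0 UMIs in both Z/Z libraries. The level that 3 UMIs over both Z/Z libraries would give (0.0688 CPM) was 87.4-fold below the WT mean (6.01). That mean rests mostly on WT 2, so the fold is uncertain beyond this counting limit. Of 14 genes of other intermediate filaments 12 were tested, with 2 higher and 1 lower and a median of 0.00, near the 21.4% of all genes called either way. Des, the muscle filament desmin, was at 1.51 (SE 0.23, adjusted p = 0.0153), Lmna, a nuclear lamin, at 0.89 (SE 0.15, adjusted p = 0.0181) and Bfsp1, a lens filament gene, at −2.75 (SE 0.68, adjusted p = 0.0430). Fibroblast markers summed to 118 and 102 CPM of WT TECs and 235 and 233 of Z/Z TECs, and their part in these values was not tested.

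Of 16 epithelial and keratin-gene transcription factors 3 were higher and 2 lower in Z/Z TECs, with a median log2 fold change of −0.12. Of all genes tested, 9.69% were higher and 11.7% lower. Klf5 was at 1.04 (SE 0.19, adjusted p = 0.0207), Sox9 at 0.94 (SE 0.20, adjusted p = 0.0302) and Grhl2, a regulator of epithelial junction genes, at 0.74 (SE 0.18, adjusted p = 0.0410). Grhl3, a regulator of the skin barrier, fell (log2 fold change −2.35, SE 0.46, adjusted p = 0.0251) and so did Ovol1 (−1.50, SE 0.22, adjusted p = 0.0140). By edgeR 0 of the 57 genes of the 4 lists that were tested in the Aire cluster passed (16 at an unadjusted p under 0.05, DESeq2 6), and 0 of 46 in the aaTEC1-like cluster (9 at an unadjusted p under 0.05, DESeq2 2).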

How the data were processed

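The authors counted UMIs per gene and cell barcode with Cell Ranger 7.0.1 (mm10 reference, intronic reads included) and deposited raw count matrices of all barcodes and of called cells, with replicates kept apart. The percent values in the deposited run summaries, written by Cell Ranger, gave sequencing saturations of 65.2% to 95.2%. Cells with more than 1000 genes and under 20% mitochondrial UMIs were kept. Scrublet's own threshold marked 11 cells, so the 3.9% of cells with the highest doublet scores were removed instead. Cells were clustered on 3500 variable genes (scanpy 1.11.5, leidenalg 0.10.2, resolution 1) with 240 genes held out, all 53 keratin genes among them. Clusters were named "-like" from marker lists without keratins, with naming thresholds set after seeing the data. UMIs were summed per library, 108 ribosomal and haemoglobin genes were left out, and genotypes were compared by edgeR's quasi-likelihood test (edgeR 4.0.16, R 4.3.3, TMM factors, filterByExpr, two-sided, Benjamini-Hochberg adjusted p under 0.05 over all genes tested) in classes with at least 10 cells in every library. All adjusted p-values in the text are from edgeR unless DESeq2 (1.42.0) is named. Levels are plain CPM in descriptions and TMM-scaled CPM in tests. Shares of cells were taken after thinning each cell to 2000 UMIs, with exact (Clopper-Pearson) 95% intervals, and compared by an exact permutation test over libraries, whose smallest p with 2 against 2 is 0.333. Likeness was Pearson's r over clusters of at least 30 cells. Named genes were the 10 members, the 3 most abundant other keratins and, from each list, up to 3 called genes of largest fold change in each direction. The members and the lists were chosen with earlier results of these data known. The genotype test of edgeR was tried on simulated counts with 200 changed genes for the TEC, Aire cluster and aaTEC1-like sums. The changed genes were drawn only from genes of higher count. The interaction and DESeq2 were not tried on simulated counts.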

Additional observations from a re-analysis of the deposited data

Results flagged for a closer look

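Krt14 moved in opposite directions in the 2 clusters tested. In the Aire cluster both Z/Z libraries (250 and 307 TMM-scaled CPM) lay above both WT libraries (140 and 121). In aaTEC1-like cells both Z/Z libraries (13.3 and 22.0) lay below both WT libraries (168 and 101). Such lack of overlap was common, at 50.3% of all genes tested in the Aire cluster and 44.7% in aaTEC1-like cells. The log2 fold changes of Krt14, 1.09 and −2.94, were 4.03 apart, and this difference was not tested between these 2 clusters. Neither fold change passed edgeR's test, and part of the last 500 bases of Krt14 is shared with Krt16 and Krt17. In aaTEC1-like cells of WT, Krt14 was found in 2 of 15 and 1 of 10 cells after thinning. Droplets without a cell held 27.6 and 10.9 CPM of Krt14 in the Z/Z libraries, near the cluster's own Z/Z level.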

How the results depend on the processing

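Of the 169 refits of single members in all TECs, 121 kept the direction and the side of the threshold. Members called in all TECs numbered 4, but 7 with DESeq2, 7 when low counts were not filtered and 1 without the Aire cluster, and 0 to 5 with 1 library left out (0 without Z/Z 1, 1 without Z/Z 2). All genes called were 4450 of 18856 with DESeq2, 5610 of 27391 with no filter, 559 of 16624 without the Aire cluster and 0 of 19800 without Z/Z 1. In the Aire cluster 0 were called, but 4 with DESeq2 and 6 with no filter. In aaTEC1-like cells 0 were called, but 1 with DESeq2, 1 with no filter and 1 with cells thinned to 2000 UMIs. The count there also moved with 1 library left out. In the interaction 0 were called, but 8 with no filter, 3 with thinned cells and 0 to 4 with 1 library left out. Of all genes tested in the Aire cluster, 1.79% were called with DESeq2 and 4.94% with no filter. For aaTEC1-like cells these shares were 0.68% and 1.39%, and 0.166% with thinned cells. For the interaction they were 2.9% with no filter and 2.4% with thinned cells. With the replicate number as a block, 3 members and 12.5% of all genes were called in all TECs. Krt18 was lost (adjusted p = 0.0539), and so was Krt7, while Krt14 was gained (adjusted p = 0.0246). The block gave 0 members and 0% of all genes in the Aire cluster, and 1 member and 0.361% in aaTEC1-like cells. Samples with the same number did not deviate together over genes (r = −0.084, −0.064 and −0.055). With 2 libraries a genotype this cannot show whether the numbers pair the samples. Krt5 in all TECs, at −0.01, turned to 0.052 with no filter, 0.024 with the block, 0.10 with cells of at least 2000 genes, 0.17 in cells with an Epcam UMI, 0.17 without aaTEC2-like cells, and −0.35 to 0.42 with 1 library left out. Krt8 turned to −0.24 in thinned cells, and without the Aire cluster Krt7 turned to −0.02 and Krt79 to 2.03. In the Aire cluster Krt19 turned to −0.87 with more doublets removed and to −3.27 at the higher resolution, and spanned −1.01 to 1.17 with 1 library left out, as Krt15 spanned −0.095 to 7.38. In aaTEC1-like cells Krt5 spanned −1.46 to 0.56, Krt17 −0.94 to 0.18 and Krt19 −0.33 to 1.55, and in the interaction Krt20 spanned −4.50 to 3.16. The genotype difference in the share of TECs, in percentage points, turned for Krt7 (2.63 at 4000 UMIs, 1.33 in cells with an Epcam UMI, 2.63 without aaTEC2-like cells), for Krt18 (14.5 and 16.8 in the last 2 of these), and for Krt5 without Krt14 (3.09 with no thinning, 4.18 at 4000 UMIs, 3.19 in cells with an Epcam UMI, 2.40 without aaTEC2-like cells). With 1 library left out it spanned −4.18 to 0.400 for Krt7, −2.76 to 0.671 for Krt10, −7.58 to 3.86 for Krt18 and −3.00 to 0.755 for Krt5 without Krt14. The causes were not tested. Depth limits Krt15 and Krt20 most, with 191 and 1259 UMIs in all TECs.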
